A study of Mus musculus with 7 samples.

Results

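The 10 genes followed here are named for smooth muscle and actin-binding contractile proteins, and were measured by RNA-seq in CD8 T cells from mouse tumours. They are Acta2, Myl9, Tagln, Tagln2, Cnn1, Cnn2, Cnn3, Tpm1, Tpm2 and Cald1. They were chosen by name and are 10 of the 55357 genes in the deposited table, which held a row for each of the 10. MCA205, a mouse fibrosarcoma line, had been injected under the skin of C57Bl/6 mice that were wild type (WT) or of ENT1KO mice (genotype Slc29a1-/-), which lack the nucleoside transporter ENT1. At day 14 the tumours were dissociated, and live CD45+ CD8+ T cells were sorted and their poly(A) RNA was sequenced. The groups were 4 ENT1KO samples (replicates 11, 12, 14 and 15) and 3 WT samples (replicates 1, 2 and 3). Both received the same tumour line, and the knockout is a property of the host. The labels give neither age nor sex, and they do not say whether each sample came from its own animal, so the p-values measure only the spread between these samples.

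Smooth muscle cells shorten when myosin filaments pull on actin filaments built in part from the isoform that Acta2 encodes. Myosin is switched on through phosphorylation of its regulatory light chain, while calponin, caldesmon, transgelin and tropomyosin lie along the actin filament and set how myosin reaches it. Many of these genes are also used outside smooth muscle, in fibroblasts and myofibroblasts, where serum response factor (SRF) and its MRTF partners drive them. Tagln2 and Cnn2 are relatives that blood cells, T cells included, use in their own actin cytoskeleton.

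Levels are TPM, in which reads are scaled to transcript length and library total, so levels of different genes can be set beside each other. A difference is the ENT1KO mean less the WT mean of log2(TPM + 1), given with its standard error (SE) from limma-trend, a linear model fitted to all 13798 genes that reached 1 TPM in at least 3 samples, and adjusted p-values are Benjamini-Hochberg values over those genes. A gene was called at an adjusted p of 0.05 or less. Slc29a1, the deleted gene, was measured at 13.59 (replicate 11), 13.18 (12), 17.61 (14) and 15 TPM (15) in the knockout, and at 51.01 (replicate 1), 58.85 (2) and 49.73 TPM (3) in WT (difference -1.78, SE 0.13, limma adjusted p = 0.00121). Its groups did not overlap, as the labels require, although reads on the gene remained in the knockout.

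Of these 10 genes, 8 were lower in the ENT1KO samples and did not overlap between the groups, namely Acta2, Myl9, Tagln, Cnn1, Cnn3, Tpm1, Tpm2 and Cald1. Cnn2 was higher on TPM, although it turned negative when libraries were scaled to the CD8 T cell list, and Tagln2 was not called. All 10 passed the low-value filter, but 3 of them only through WT: 1 TPM was reached in none of the ENT1KO samples for Tagln, in 1 for Cnn1 and in 2 for Myl9, so their lower level was in part fixed by the filter. Of all tested genes, 23.1% were called lower and 27.5% higher by limma, 50.6% in either direction, and 24.9% had every ENT1KO value below every WT value (55.2% had groups apart in either direction). The median difference of the 10 was -3.64, beside a median of 0.15 over all tested genes. In the authors' deposited table, 25.8% of the 18878 genes with an adjusted p-value were called lower and 42.3% in either direction, and the same 8 genes were among them. The mean log2(TPM + 1) of the fibroblast matrix genes or of the macrophage genes in each library was also used as a covariate. With either, limma called 0 of the 10, in fits that called 0 and 3 of all tested genes, and 6 of the 10 had an unadjusted p under 0.05 in each. With the matrix covariate the differences were -2.48 for Tagln, -1.77 for Cnn1, -1.69 for Myl9, -1.41 for Cnn3, -1.26 for Tpm1, -1.03 for Acta2, -0.11 for Tpm2 and 0.16 for Cald1 (limma adjusted p from 0.407 to 0.911). With the macrophage covariate they ran from -2.50 for Tagln to -0.39 for Cald1. The SE with the matrix covariate ran from 0.277 for Cald1 to 0.685 for Tagln. Neither list overlapped between the genotypes. The matrix sum was at most 872.5 TPM in ENT1KO and at least 4079 TPM in WT, and the macrophage sum at most 1298 and at least 3401 TPM. With 7 samples these fits can therefore do little to separate genotype from covariate, and a loss of calls follows from the design.

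**Figure D1:**
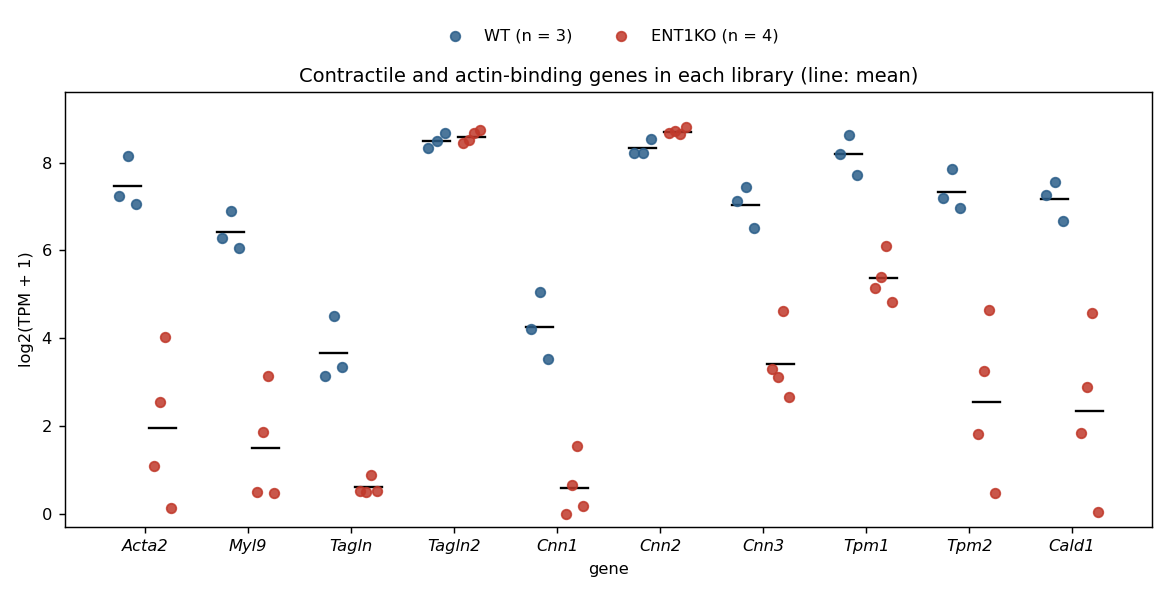
Level of each of the 10 genes in each of the 7 libraries on the log2(TPM + 1) scale, as points, with the line marking the group mean. The WT points lie above all ENT1KO points for 8 genes, those of Tagln2 overlap, and those of Cnn2 lie below.

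The promoters of 4 of the genes are printed to place them beside their levels: Acta2 and Myl9 had the largest differences, and Cnn2 and Tagln2 are the pair that did not fall. SRF binds the CArG box, CC, then 6 bases that are each A or T, then GG. The windows run from 250 bases before to 50 bases after the start of the gene, 5′ to 3′ on the gene's strand, from RefSeq with build GRCm38.p6 (9 of the 10 genes had an entry, all except Tagln). They lie at chr19:34255324-34255623 on the minus strand (Acta2), and on the plus strand at chr2:156775214-156775513 (Myl9), chr10:79988350-79988649 (Cnn2) and chr1:172499996-172500295 (Tagln2). Capitals mark CArG boxes, CArG-like runs in which 1 of the 6 core bases is C or G, and the muscle motif MCAT (CATTCC, or GGAATG where it lies on the other strand).
Acta2: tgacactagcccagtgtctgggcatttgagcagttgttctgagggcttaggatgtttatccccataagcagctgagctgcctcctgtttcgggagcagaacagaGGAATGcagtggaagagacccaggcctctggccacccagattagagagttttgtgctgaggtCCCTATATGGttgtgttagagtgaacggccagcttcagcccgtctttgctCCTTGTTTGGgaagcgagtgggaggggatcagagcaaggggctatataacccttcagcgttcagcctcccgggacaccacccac
Myl9: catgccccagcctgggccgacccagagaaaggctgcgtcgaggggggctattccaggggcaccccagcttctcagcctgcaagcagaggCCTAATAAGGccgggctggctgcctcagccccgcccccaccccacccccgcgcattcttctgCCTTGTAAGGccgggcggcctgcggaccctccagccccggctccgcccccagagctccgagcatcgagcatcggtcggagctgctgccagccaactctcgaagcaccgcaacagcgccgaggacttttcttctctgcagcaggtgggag
Cnn2: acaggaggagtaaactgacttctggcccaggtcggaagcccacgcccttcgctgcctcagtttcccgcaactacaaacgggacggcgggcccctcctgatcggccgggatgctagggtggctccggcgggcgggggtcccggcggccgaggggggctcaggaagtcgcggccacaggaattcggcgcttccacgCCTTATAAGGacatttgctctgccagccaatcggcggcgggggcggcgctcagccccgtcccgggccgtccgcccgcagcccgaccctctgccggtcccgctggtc
Tagln2: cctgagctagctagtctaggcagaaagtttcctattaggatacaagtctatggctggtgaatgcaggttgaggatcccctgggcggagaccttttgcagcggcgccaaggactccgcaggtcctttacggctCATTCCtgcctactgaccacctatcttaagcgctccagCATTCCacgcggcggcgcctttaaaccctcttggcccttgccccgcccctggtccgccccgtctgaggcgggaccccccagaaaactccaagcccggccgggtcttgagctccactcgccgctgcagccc
An exact CArG box was found in 2 of the windows, in Myl9 (CCTAATAAGG, from -161 to -152 relative to the start) and in Cnn2 (CCTTATAAGG, -56 to -47). Of 32851 promoter windows of the same length, 535 (1.63%) hold one. CArG-like runs lay in Acta2 (CCCTATATGG at -84 to -75 and CCTTGTTTGG at -34 to -25) and in Myl9 (CCTTGTAAGG at -99 to -90), a form that 8.5% of all windows hold and that was added after the sequences had been seen. MCAT matches on either strand stood in Acta2, Cald1, Tpm1 and Tagln2, against 14.7% of all windows. None of the motifs overlapped another. These are matches of letters in a short window and say nothing of binding. Myl9 and Cnn2, which both hold an exact CArG box, differed in opposite directions between the genotypes, and the scale on which Cnn2 was called is given with its values.

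Acta2, which encodes smooth muscle alpha-actin (ENSMUSG00000035783; GRCm39 chr19:34218490-34232990), was measured in the knockout at 1.12 TPM (replicate 11), 4.83 (12), 15.31 (14) and 0.09 (15), and in WT at 149.18 TPM (replicate 1), 282.85 (2) and 131.51 (3). Values of the other genes follow in this order of replicates. The lowest WT library was far above the highest ENT1KO library, and within the knockout replicate 14 was the highest and replicate 15 the lowest, 170-fold apart. The means were 5.34 ± 6.95 TPM (SD, n = 4) and 188 ± 82.7 TPM (SD, n = 3), a 35.2-fold ratio of mean TPM, and the difference was -5.53 (SE 0.85, limma adjusted p = 0.00233). Only 7 of the 13798 tested genes had a more negative difference. In ENT1KO replicate 15 the normalized count of Acta2 was 0.982, the smallest non-zero value of that library.

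Myl9 encodes a regulatory light chain of smooth muscle and non-muscle myosin (GRCm39 chr2:156617340-156623578). It was measured at 0.41, 2.62, 7.83 and 0.38 TPM in the 4 ENT1KO libraries and at 76.24, 119.06 and 65.93 TPM in the WT libraries. Again all WT values lay above all ENT1KO values, with replicate 14 highest among the knockouts. Mean levels were 2.81 ± 3.51 TPM (SD, n = 4) against 87.1 ± 28.2 TPM (SD, n = 3), and the difference was -4.93 (SE 0.64, limma adjusted p = 0.00153).

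Tagln and Tagln2 encode transgelins, small proteins that crosslink actin, the first typical of smooth muscle and the second of many other cells. Tagln (GRCm39 chr9:45840917-45847356) stood at 0.42, 0.40, 0.83 and 0.44 TPM in ENT1KO and at 7.74, 21.57 and 9.10 TPM in WT. The 3 WT values were all above the knockouts, of which only replicate 14 stood apart from a narrow range. The difference was -3.06 (SE 0.33, limma adjusted p = 0.00121), with means of 0.523 ± 0.206 TPM (SD, n = 4) and 12.8 ± 7.62 TPM (SD, n = 3). On the log2(TPM + 1) scale this understates the fold, since the ENT1KO levels lie under the pseudocount of 1: the ratio of mean TPM was 24.5.

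Tagln2 (GRCm39 chr1:172327614-172334947) was far more abundant than Tagln in every library. Its levels were 345.36, 363.30, 410.07 and 424.82 TPM in ENT1KO and 323.28, 359.14 and 407.88 TPM in WT, and the groups overlapped. The means, 386 ± 37.7 TPM (SD, n = 4) and 363 ± 42.5 TPM (SD, n = 3), differed by 0.09 (SE 0.12, limma adjusted p = 0.567), and by -0.10 on log2(normalized count + 1), so the sign of this small difference turned with the scale.

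Calponins bind actin and restrain myosin, and 2 of the 3 genes of this family were lower in ENT1KO. Cnn1, the smooth muscle form (GRCm39 chr9:22010512-22020926), was listed at 0.00 TPM in ENT1KO replicate 11 and was at 0.57, 1.90 and 0.12 TPM in replicates 12, 14 and 15, against 17.48, 32.15 and 10.53 TPM in WT. No ENT1KO value came near the lowest WT value. The difference was -3.67 (SE 0.46, limma adjusted p = 0.00133).

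Cnn3, the acidic calponin found in many non-muscle cells (GRCm39 chr3:121220146-121251856), had 8.81, 7.64, 23.72 and 5.29 TPM in ENT1KO and 137.77, 174.01 and 89.96 TPM in WT. It was lower in all 4 ENT1KO samples, with means of 11.4 ± 8.37 TPM (SD, n = 4) and 134 ± 42.2 TPM (SD, n = 3) and a difference of -3.60 (SE 0.45, limma adjusted p = 0.00142). The spread among the knockouts was narrower than for Acta2, with the highest 4.48 times the lowest.

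Cnn2, the calponin of blood cells (GRCm39 chr10:79824418-79831896), ran the other way. Its levels were 406.94, 418.10, 400.65 and 445.22 TPM in ENT1KO and 296.30, 298.28 and 372.89 TPM in WT. All 4 ENT1KO values were above all 3 WT values, by a small step between replicate 14 of the one and replicate 3 of the other. On TPM the difference was 0.38 (SE 0.11, limma adjusted p = 0.0235). It was not called on log2(normalized count + 1), where it was 0.21 (limma adjusted p = 0.204), nor in the authors' deposited table (0.20, adjusted p = 0.257), and it turned negative when libraries were scaled to the CD8 T cell list. Leaving out ENT1KO replicate 12 or 15 or WT replicate 1 or 2 each ended the call as well (limma adjusted p = 0.053, 0.0583, 0.083 and 0.079).

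Tropomyosins are coiled coils that wind along the actin filament. Tpm1 (GRCm39 chr9:66929872-66956688) was at 34.29, 40.93, 67.72 and 27.10 TPM in ENT1KO and at 293.44, 397.5 and 210.35 TPM in WT. Of the 8 genes that fell, it kept the highest level in the knockout, 42.5 ± 17.7 TPM (SD, n = 4) beside 300.4 ± 93.8 TPM (SD, n = 3), which is 14.2% of the WT mean. The difference was -2.83 (SE 0.32, limma adjusted p = 0.00125).

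Tpm2 (GRCm39 chr4:43514711-43523765) had 2.54, 8.45, 23.83 and 0.39 TPM in ENT1KO and 145.88, 230.12 and 123.75 TPM in WT. The highest ENT1KO value, in replicate 14, was 61.1 times the lowest, in replicate 15, yet below all WT values. The difference was -4.80 (SE 0.88, limma adjusted p = 0.0041).

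Cald1 encodes caldesmon, which restrains myosin on the actin filament (GRCm39 chr6:34575435-34752408), and showed the widest range among the knockouts. It was at 2.57, 6.34, 22.89 and 0.03 TPM in ENT1KO and at 152.08, 187.50 and 100.80 TPM in WT, and the difference was -4.83 (SE 0.93, limma adjusted p = 0.00485). Replicate 14 was 763 times replicate 15, whose normalized count was 0.982, the smallest non-zero value of that library. Without any single library, all 8 of the genes that fell kept their call wherever they could be tested (limma adjusted p at most 0.039, for Cald1); without any 1 of the WT libraries Tagln no longer reached the filter.

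**Figure D2:**
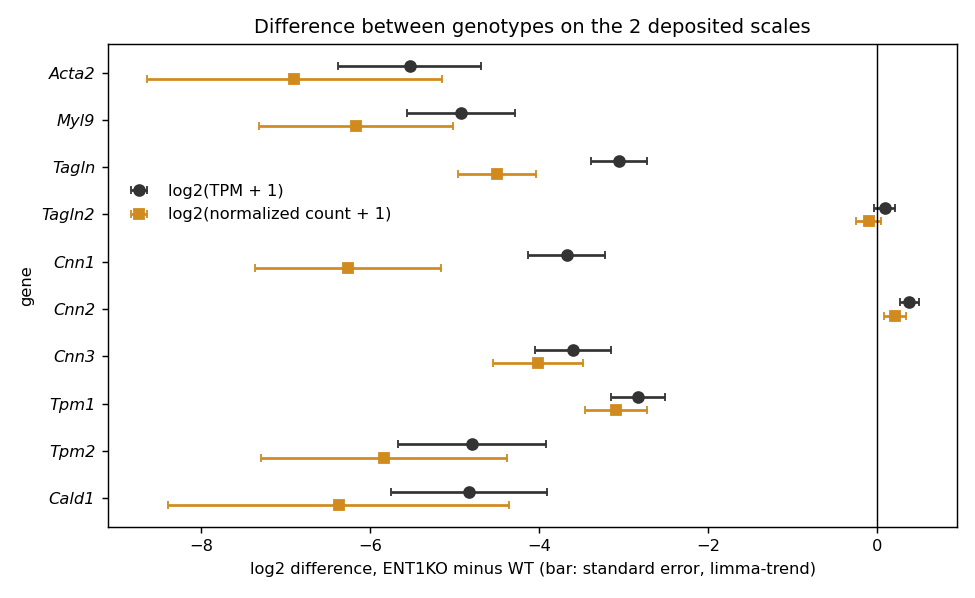
Difference between ENT1KO and WT for each gene with its standard error from limma-trend, on the x axis, computed from log2(TPM + 1) and from log2(normalized count + 1). The values reach from -5.53 for Acta2 to 0.38 for Cnn2 on the first scale, and Tagln2 changes sign between the scales.

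On the deposited normalized counts the 8 genes that fell were called lower too, with larger differences for the low genes, while Tagln2 changed sign. Acta2 differed by -6.90 (SE 1.75, limma adjusted p = 0.0176), Cnn1 by -6.26 (SE 1.10, limma adjusted p = 0.00496) and Cald1 by -6.37 (SE 2.02, limma adjusted p = 0.0371). On this scale 30.3% of 14465 tested genes were called lower and 20.9% higher. The authors' deposited table held -5.24 for Acta2 (adjusted p = 0.00142), -4.68 for Tagln (adjusted p = 1.15e-17), -3.84 for Cnn3 (adjusted p = 2.93e-13), -3.07 for Tpm1 (adjusted p = 3.36e-15) and -0.11 for Tagln2 (adjusted p = 0.631).

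Within each family, the level of a gene that fell was set against that of a relative abundant in these libraries, as a log2 ratio of TPM + 1. Each was tested by an exact permutation test, two-sided, whose 35 arrangements cannot give less than 0.0286, and p-values were adjusted over the 6 ratios. A difference of ratios is that of the gene less that of its relative, so these tests give no support separate from the calls above. Tagln lay at 0.40 to 0.83 TPM in ENT1KO, under the pseudocount, and Tagln and Cnn1 passed the filter only through WT. The ratio of Tagln to Tagln2 was -7.99 ± 0.17 in ENT1KO and -4.85 ± 0.74 in WT (SD, n = 4 and n = 3), a difference of -3.14 (exact p = 0.0286, adjusted p = 0.0343). For Cnn1 to Cnn2 the ratios were -8.12 ± 0.73 and -4.07 ± 0.92, and for Cnn3 to Cnn2 -5.29 ± 0.90 and -1.30 ± 0.66, differences of -4.05 and -3.98 with the same exact and adjusted p. All 3 ratios were lower in every ENT1KO sample than in any WT sample. On log2(normalized count + 1) none of the 6 ratios was called (exact test, adjusted p = 0.0571 each).

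For the tropomyosins the comparison was with Tpm3 and Tpm4, which most cells use. Tpm3 was not called (difference 0.20, limma adjusted p = 0.126). Tpm4 was itself lower in ENT1KO, at 356 against 611 TPM (difference -0.79, limma adjusted p = 0.0058). Tpm1 to Tpm3 differed by -3.02 and Acta2 to Actb, cytoplasmic beta-actin, by -5.39 (exact p = 0.0286 each, adjusted p = 0.0343). Tpm2 to Tpm4 differed by -4.01, but 1 other arrangement gave a larger difference in the opposite direction, so the exact p was 0.0571 and it was not called.

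**Figure D3:**
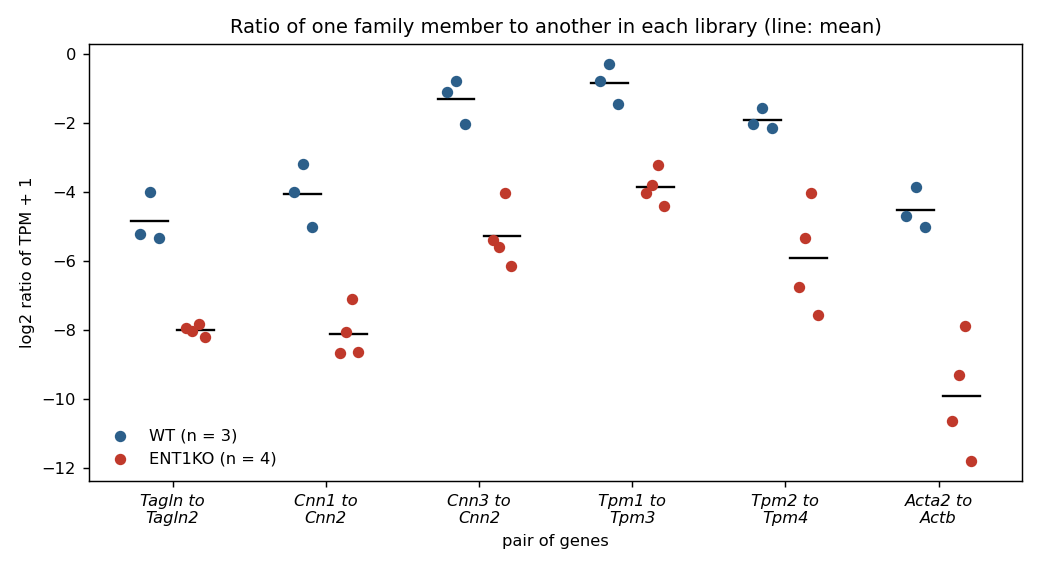
Log2 ratio of TPM + 1 of 1 gene to another in each of the 7 libraries for the 6 pairs, with the line at the group mean. For all 6 pairs the ENT1KO points lie below the WT points, for Acta2 to Actb by 5.39 on average.

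As shares of a family's summed TPM, the calponins were almost all Cnn2 in the knockout, 94.0% to 98.8%, against 59.1% to 78.8% in WT. Cnn3 made up 1.17% to 5.56% there and 19.0% to 34.5% in WT. Of tropomyosin, Tpm1 held 14.4% to 22.1% in WT and 3.04% to 5.99% in ENT1KO. Tpm2 held 8.47% to 12.8% in WT and 0.0438% to 2.11% in ENT1KO, and Tpm3 27.0% to 39.5% in WT and 56.3% to 67.3% in ENT1KO. Tpm4 held 37.7% to 38.7% in WT and 29.6% to 38.0% in ENT1KO. Acta2 was a small part of all actin in both genotypes, 1.74% to 3.79% in WT and at most 0.242% in ENT1KO.

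**Figure D4:**
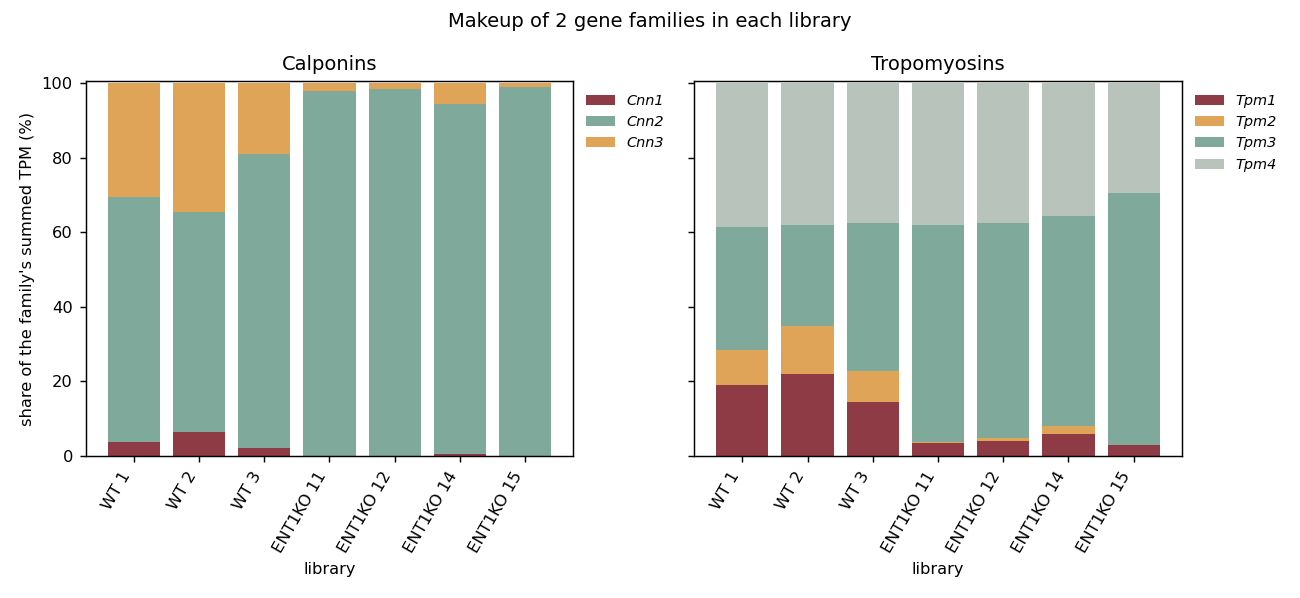
Share of each family's summed TPM, in percent, held by each gene in each of the 7 libraries, for calponins and tropomyosins. Cnn2 holds 94.0% to 98.8% of calponin in ENT1KO, and Tpm3 holds more of tropomyosin in ENT1KO than in WT.

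Actin isoforms are near copies of each other, and the 2 deposited tables treated them differently. The count behind 1 TPM depends on transcript length. In WT libraries Acta2 had 29.4 normalized counts for each TPM and Actb 29.7, but Actg1, cytoplasmic gamma-actin, had 0.304, and in ENT1KO 0.0784. Actg1 had a mean of 2934 ± 243 TPM (SD, n = 3) in WT and 2494 ± 143 TPM (SD, n = 4) in ENT1KO, a difference of -0.23 (limma adjusted p = 0.0823), while on log2(normalized count + 1) it differed by -2.14 (limma adjusted p = 0.00267). Myl12b, a myosin light chain close to Myl12a, likewise had few normalized counts per TPM, 0.425 in WT, against 6.51 for Myl12a. None of the 10 genes behaved that way in WT, where they had 16.1 to 50.4 normalized counts per TPM.

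Genes that define smooth muscle as a cell type were mostly below the filter in both genotypes, and the label smooth muscle describes the names of these genes, not the cells. Myh11, the smooth muscle myosin heavy chain, was at 0.09, 0.20 and 0.00 TPM in WT and at most 0.04 TPM in ENT1KO. Des, encoding desmin, was at 0.15, 0.45 and 0.06 TPM in WT, and Lmod1, the actin nucleator leiomodin 1, at 0.63, 0.97 and 0.54 TPM. Of 13 such genes, 4 passed the filter, Actg2 only with the WT samples, and all 4 fell (median -2.11): Actg2 (-4.10), Smtn (-2.24), Pdlim7 (-1.97) and Csrp1 (-0.62), with limma adjusted p-values from 0.00121 to 0.00389. Actg2 encodes the enteric smooth muscle actin, a near copy of Acta2, and stood at 1.14 ± 0.83 TPM (SD, n = 4) against 36.6 ± 17.7 TPM (SD, n = 3). Their summed TPM ranged from 84.6 to 110.5 in ENT1KO and from 193.6 to 273.2 in WT.

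Srf itself was not called, at 43.3 ± 5.34 TPM (SD, n = 4) and 41.8 ± 2.29 TPM (SD, n = 3), with a difference of 0.04 (SE 0.12, limma adjusted p = 0.787). Myocd, the muscle SRF cofactor, was at 0.03 TPM or less everywhere. Mrtfa, an SRF partner, was higher by 0.57 (limma adjusted p = 0.0118) on TPM, a call that was lost when libraries were scaled to the CD8 T cell list. The SRF targets Ccn1 and Ccn2, secreted matricellular proteins, were lower, Ccn1 by -4.97 (SE 0.96, limma adjusted p = 0.00495), at 21.7 ± 26.6 TPM (SD, n = 4) against 432 ± 236 TPM (SD, n = 3), and Ccn2 by -4.28 (limma adjusted p = 0.0026), at 2.32 ± 2.77 TPM against 51.3 ± 23.0 TPM. Ccn2 passed the filter only with the WT samples.

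Among 28 genes of the general actin cytoskeleton, all were tested, 8 were lower and 10 higher (median 0.19), but 20 lower and 0 higher when libraries were scaled to the CD8 T cell list. Tmsb4x and Tmsb10, the thymosins that hold actin monomers, were higher by 0.61 and 0.82 (limma adjusted p = 0.00906 and 0.00512), at 8788 ± 1017 against 5770 ± 975 TPM for Tmsb4x. The largest fall was that of Myh10, non-muscle myosin IIB (-2.99, limma adjusted p = 0.00173), which passed the filter only with the WT samples, followed by Vcl (-2.32) and Gsn (-2.26), encoding vinculin and gelsolin. Actb was not called (3697 ± 237 against 4089 ± 204 TPM, difference -0.15, limma adjusted p = 0.223). Of 10 relatives of the genes studied, 7 were tested, 3 were lower and 1 was higher (median -0.23), and 8 genes stand in more than 1 list.

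Markers of other cells moved with the genotypes in the same libraries. Whether the fibroblast matrix RNA came from host fibroblasts or from the MCA205 fibrosarcoma cells was not tested. Fibroblast matrix genes summed to 68.1, 176.6, 872.5 and 6.40 TPM in ENT1KO (replicates 11, 12, 14, 15) and to 6187, 7675 and 4079 TPM in WT, and 16 of 16 tested were lower (median -4.89), 6 of which passed the filter only with the WT samples. Col3a1, a fibrillar collagen, was the largest of them (-6.03, limma adjusted p = 0.0122), and Postn, periostin, fell by 5.95. Macrophage genes summed to 423, 534, 1298 and 111 TPM in ENT1KO and to between 3401 and 5024 TPM in WT, with 12 of 12 lower, among them Lyz2 (-3.30), C1qc (-3.37) and Apoe (-3.15). Without WT replicate 2, 6 of the 12 were called lower.

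Endothelial genes (8 of 8 tested lower, median -1.86, Eng -1.89, Egfl7 -1.78, Plvap -2.30) summed to between 4.55 and 13.7 TPM in ENT1KO and between 33.2 and 59.2 TPM in WT. Of these 8 genes, 6 passed the filter only with the WT samples, so their lower level was in part fixed by it, and 3 genes were called without any 1 of the WT replicates. Pericyte genes summed to between 6.16 and 18.0 TPM and between 33.8 and 54.7 TPM. Of 4 tested, 3 were lower, Pdgfrb the most (-3.46), all 3 having passed the filter only with the WT samples. Kcnj8 was higher (1.53), but not called without WT replicate 2. The platelet gene Pf4 was lower (-3.62) and Itga2b was not called (-0.35). Skeletal muscle genes summed to between 11.3 and 16.7 TPM and between 9.2 and 13.3 TPM. Of 3 tested, Mylpf (0.77) and Tnnt3 (0.87) were higher and Tnni2 (-0.79) was lower. Neither rise was called without ENT1KO replicate 11, 12 or 15 or WT replicate 2, and 1 was without WT replicate 1 or 3. The fall was not called without ENT1KO replicate 11 or 12 or WT replicate 1 or 2.

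All 14 genes of CD8 T cell identity were higher in ENT1KO, Trac by 1.17, Trbc2 by 1.23 and Cd5 by 1.49 (limma adjusted p = 0.00731, 0.00634 and 0.00264), and they summed to between 9105 and 11210 TPM against 2857 to 6871 TPM in WT. In bulk RNA, fewer cells of a type and less RNA per cell cannot be told apart. The part that these other cells' RNA had in the differences of the 10 genes was not tested.

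As a share of the fibroblast matrix sum of the same library, Acta2 was 1.64%, 2.74%, 1.75% and 1.41% in ENT1KO and 2.41%, 3.69% and 3.22% in WT, a few percent in every library. All shares in ENT1KO replicate 15 rest on a sum of 6.40 TPM, of which Fn1 alone was 5.29 TPM. Acta2 stood there at 0.09 TPM, a normalized count of 0.982, so its share in that library is a value at the floor. Tpm2 was 2.73% to 6.09% in ENT1KO and 2.36% to 3.03% in WT, Myl9 was 0.602% to 5.94% and 1.23% to 1.62%, and Cald1 was 0.469% to 3.77% and 2.44% to 2.47%. Acta2, Myl9, Tpm1, Tpm2 and Cald1 (5 of the 10 genes) had the same order of libraries as the matrix sum. The macrophage and endothelial sums had that order too, so it is not particular to the matrix genes. How many of all tested genes share the order was not counted. Tpm1 was 4.74% to 5.18% in WT but 7.76% to 423% in ENT1KO, and Cnn3 2.21% to 2.27% in WT but 2.72% to 82.7% in ENT1KO, so neither kept a fixed share. Tagln2 and Cnn2 had no such relation, at 47.0% and 45.9% in ENT1KO replicate 14 and at 6640% and 6960% in replicate 15.

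**Figure D5:**
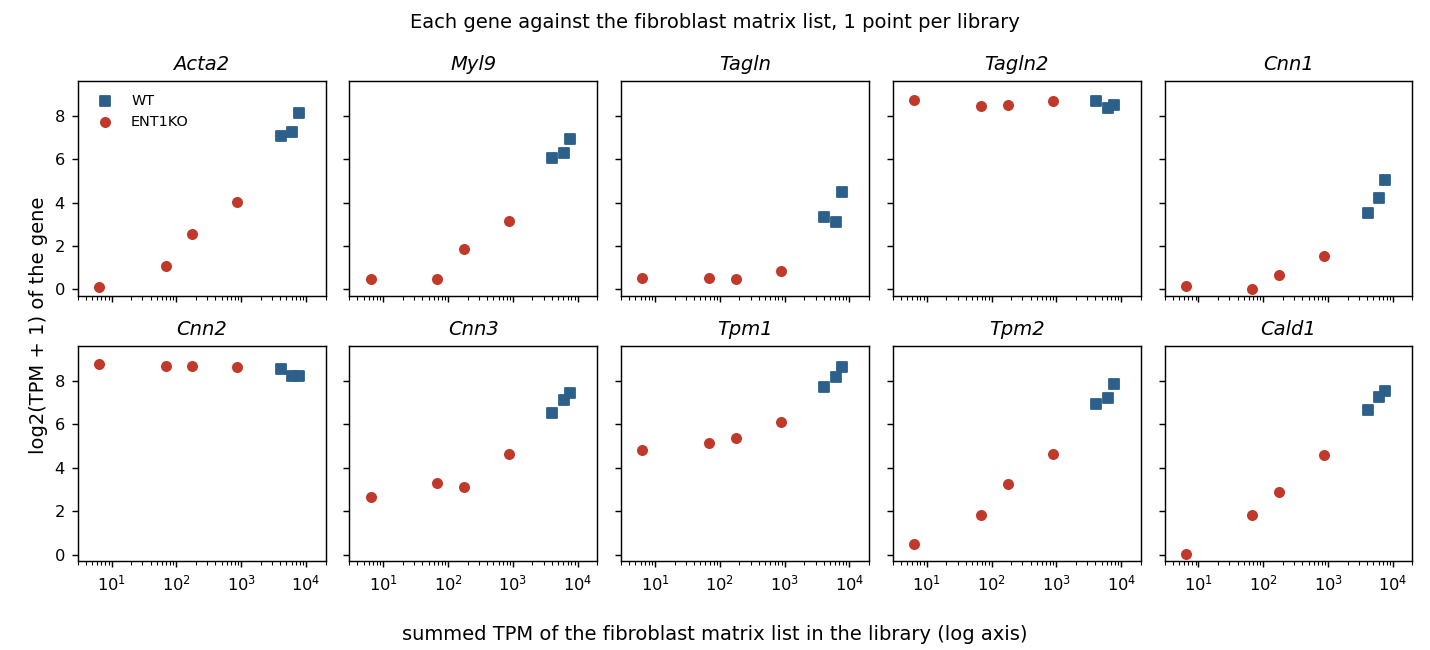
Level of each gene as log2(TPM + 1) against the summed TPM of the fibroblast matrix genes, on a log axis, in the 7 libraries. The pseudocount flattens levels under 1 TPM, where Acta2, Cald1 and Tpm2 lie in ENT1KO replicate 15. Acta2, Cald1 and Tpm2 follow the matrix sum from 6.40 TPM in ENT1KO replicate 15 to 7675 TPM in WT replicate 2, while Tagln2 and Cnn2 stay level. Of the 6.40 TPM, Fn1 alone is 5.29 TPM.

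The genes most alike in pattern were found by Pearson correlation of log2(TPM + 1) over the 7 samples, among 9607 genes of at least 5 TPM on average. The correlations describe samples that share libraries and a split into groups, and no p is given. For Cald1 they were Col1a2 (r = 0.9994), Fstl1 (0.999) and Dcn (0.9989), for Tpm2 Col6a3 (0.9997), Oaf (0.9994) and Serpinh1 (0.9992), and for Acta2 Khdrbs3 (0.9995), Fkbp10 (0.9992) and Cavin1 (0.9991). Myl9 was most like Steap1, Angptl2 and Cdkn2a, Cnn1 like Pla2g15, Ier3 and Emp1, Cnn3 like Hsd3b7, Wipi1 and Mtmr11, Tpm1 like Myo1c, Cmtm3 and Trip6, and Tagln like Dcakd, Mrfap1 and Gorasp2, all with r of at least 0.9959. Cnn2 was most like Tpt1-ps3, Isg20 and Acaa2 (r = 0.9957, 0.9954 and 0.9945). Tagln2 had the weakest likeness, with Trp53 (0.9729), Psmb10 (0.9699) and Eef1g (0.9628).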

How the data were processed

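RNA of sorted CD8 T cells was sequenced in 7 samples (4 ENT1KO, 3 WT), with at least 30000 cells per condition and 75 ng of RNA, per the labels. The authors deposited TPM for 55357 genes, and a comparison table with a signal per sample, gene counts that the authors divided by a size factor. That table also holds log2 fold changes, a test statistic (a score) and p-values from the authors' own test. The submitters' processing notes list, without roles, the authors' tools DESeq, DESeq2 1.30.1, RSEM, STAR 2.7.1a and Trimmomatic (0.35, 0.38), with the build GRCm39. The annotation release was not given in the sources. The whole reads behind the normalized counts numbered 18624318 to 19660792 per library (100% of values whole within 0.01). The step lay too near 1 in 2 WT libraries to prove this, so no count test was run.

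The 13798 genes that reached 1 TPM in 3 or more libraries entered limma-trend (robust empirical Bayes, log2(TPM + 1)) (limma 3.58.1, R 4.3.3), tested first on simulated data. Samples were grouped by their titles. Alternatives changed the pseudocount (0.1 or 5), the filter, the scaling (quantile normalization, the normalized counts, the CD8 T cell list), array weights, a fibroblast matrix or macrophage covariate, and the samples. Beside the 10 genes and Slc29a1, the text names from each of 10 gene lists the 2 most abundant genes and the called gene with the largest difference, and for each of the 10 the 3 genes most alike. Other list members were named after their values were seen. The genes and lists were chosen with earlier results of these data known. Protein sequences were not used here, and 1 further gene list is not reported here.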

Additional observations from a re-analysis of the deposited data

Results flagged for a closer look

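In groups of 4 samples, a value was singled out when its gap to the nearest other, divided by the range, exceeded Dixon's 95% critical value. Of 56 groups of values tested among the ENT1KO samples, 6 passed, and chance alone flags about 1 in 20. Replicate 14 was the high sample in 5 of them: Tagln at 0.83 TPM, Actg2 at 2.38 TPM, Col3a1 at 220.74 TPM, Plvap at 0.83 TPM and the summed smooth muscle contractile genes at 110.5 TPM. The other was Tmsb4x, at 10311 TPM in replicate 12. WT, with 3 samples, was not tested.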

How the results depend on the processing

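With the mean log2(TPM + 1) of the fibroblast matrix genes as a covariate, 0 of the 10 genes and 0 of all genes were called by limma (unadjusted p under 0.05 in 6 and 1396). With that of the macrophage genes, 0 of the 10 and 3 of all genes were called (6 and 1978), beside 9 and 6982 without a covariate. The genotypes did not overlap in either covariate, so these fits can do little to separate it from genotype. The matrix covariate turned Cald1 to 0.16, and the other 7 genes that fell ranged from -2.48 (Tagln) to -0.11 (Tpm2). Leaving out 1 library gave 7 to 9 of the 10 and 4207 to 6482 genes, the fewest without WT replicate 2. Tagln2 turned to -0.028 under quantile normalization, -0.10 on normalized counts, -0.005 with the macrophage covariate, -0.11 in the authors' deposited table and -1.09 when scaled to the CD8 T cell list, where Cnn2 turned to -0.80 and all 10 genes were called lower. That scaling moved the median of all genes to -1.03 from 0.15 and called 22 genes higher and 9129 lower. The share of calls that were higher was 54.4%, and 40.9% on normalized counts, 44.8% with all genes above 0 in a sample, 39.0% in the authors' deposited table and 0.24% under that scaling. On normalized counts the ratios were -4.39 (Tagln), -6.47 (Cnn1), -4.22 (Cnn3), -3.10 (Tpm1) and -6.60 (Acta2), each at an adjusted exact p of 0.0571. Acta2 to Actb was -6.29 with a pseudocount of 0.1 (adjusted exact p = 0.0571), and Tpm2 to Tpm4 -3.11 with 5 (0.0286). Without 1 library the ratios ranged from -3.39 to -2.72 (Tagln), -4.53 to -3.61 (Cnn1), -4.41 to -3.70 (Cnn3), -3.33 to -2.75 (Tpm1), -4.64 to -3.45 (Tpm2) and -6.06 to -4.75 (Acta2), in designs whose smallest exact p is 0.0667 or 0.1. Lower genes numbered 4 among smooth muscle contractile genes, 3 among pericyte genes and 3 among relatives, against 9, 9 and 4 with all genes above 0 in a sample and 11, 9 and 6 in the authors' deposited table. The cause of these changes was not tested, apart from the smaller designs. With 0.03 TPM in ENT1KO replicate 15, depth limits the fold of Cald1. No paired analysis was possible because the ENT1KO and WT samples share no replicate numbers.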
